A study of Mus musculus with 9 samples.

Results

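Tmem176a, Tmem176b and 6 genes of the Ms4a cluster were followed in wild-type bone marrow-derived macrophages (BMDM) of the mouse after exposure to exosomes, the small vesicles that cells release. The members were taken by symbol: the Tmem176 pair, the members Ms4a4a, Ms4a4c, Ms4a6b, Ms4a6c, Ms4a6d and Ms4a7, together 8 of the 55536 genes in the count table. The set was chosen by measured values: the lower counts of Tmem176a, Tmem176b and Ms4a4a after exosomes of one or both kinds. The values of those 3 genes against PBS are therefore given as a description, with no test. The other 5 members entered as relatives of the 3, with their results already known.

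All recipient macrophages were wild-type and came from marrow of male mice aged 6 to 12 weeks, grown with the macrophage growth factor M-CSF at 25 ng/mL over 6 days. For 18 hours they received PBS as vehicle (PBS group), exosomes of wild-type BMDM (WT group), or exosomes of BMDM lacking apolipoprotein E, labelled EKO (ApoE-deficient group). Exosomes were given at 2e+09 particles/mL. Each of the 3 groups had 3 RNA-seq libraries, which the series calls biological replicates. Whether they came from separate mice or exosome batches is not said, so each p-value reflects library-to-library spread that may be technical. Both comparisons with PBS share the PBS libraries.

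The Ms4a proteins are small membrane proteins that cross the membrane several times. They include CD20 (Ms4a1), a surface protein of B cells, and the beta chain of the high-affinity IgE receptor (Ms4a2) of mast cells. Several of the others are made mainly by macrophages and other myeloid cells: Ms4a4a has been found with the beta-glucan receptor Dectin-1, and the human cluster is linked to levels of soluble TREM2. Tmem176a and Tmem176b are distant relatives of this family, lie head to head in the genome, and have been described as cation channels of intracellular vesicles in dendritic cells and macrophages.

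On the mouse build GRCm38, Tmem176b (ENSMUSG00000029810, minus strand) lies at chr6:48833818-48841496 and Tmem176a (ENSMUSG00000023367, plus strand) at chr6:48840919-48847071, with annotated starts 577 bases apart. In these gene models, from GENCODE M21, the gene heads overlap, so 2.1% of the exon length of Tmem176a and 3.4% of that of Tmem176b is covered by the other gene. The 6 Ms4a members lie within 283.8 kb of chromosome 19. In order along it these are Ms4a7 (ENSMUSG00000024672) at chr19:11321039-11336146, Ms4a4a (ENSMUSG00000101389) at chr19:11375523-11392790, Ms4a4c (ENSMUSG00000024675) at chr19:11404770-11427246 and Ms4a6c (ENSMUSG00000079419) at chr19:11469366-11482192. Ms4a6b (ENSMUSG00000024677) at chr19:11516512-11531256 and Ms4a6d (ENSMUSG00000024679) at chr19:11586604-11604849 follow. Ms4a7 and Ms4a6d are on the minus strand and the other members of the cluster on the plus strand.

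Promoter windows were taken from RefSeq on GRCm38.p6, from 250 bases before to 50 bases after a RefSeq start, the first listed for each gene. RefSeq starts can differ from the gene starts given above: the windows of Tmem176a, Tmem176b and Ms4a6b lie wholly inside the GENCODE M21 genes. Of the 8 members, 7 matched an entry, all but Ms4a6d. The windows of Tmem176a (chr6:48841233-48841532, plus strand) and Tmem176b (chr6:48841088-48841387, minus strand) are shown because they share 155 bases, chr6:48841233-48841387, read in opposite directions. Capitals mark that shared stretch.
Tmem176a: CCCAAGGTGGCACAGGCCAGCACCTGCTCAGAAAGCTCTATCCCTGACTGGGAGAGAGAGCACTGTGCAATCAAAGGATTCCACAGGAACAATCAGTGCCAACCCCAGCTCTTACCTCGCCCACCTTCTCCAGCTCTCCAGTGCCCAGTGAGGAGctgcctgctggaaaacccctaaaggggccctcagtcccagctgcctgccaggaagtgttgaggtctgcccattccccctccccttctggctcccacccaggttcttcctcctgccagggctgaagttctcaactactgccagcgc
Tmem176b: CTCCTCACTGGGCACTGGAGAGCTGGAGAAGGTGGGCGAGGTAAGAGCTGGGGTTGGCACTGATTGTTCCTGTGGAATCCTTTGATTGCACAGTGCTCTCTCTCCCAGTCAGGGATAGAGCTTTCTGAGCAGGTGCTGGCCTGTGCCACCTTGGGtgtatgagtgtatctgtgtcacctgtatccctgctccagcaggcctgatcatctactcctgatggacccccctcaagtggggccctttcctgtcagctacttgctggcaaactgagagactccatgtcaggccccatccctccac

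The windows of Ms4a6b (chr19:11518309-11518608, plus strand) and Ms4a6c (chr19:11469118-11469417, plus strand) are shown because these neighbours resemble each other in sequence and, as given below, in their response. Of 218 aligned bases 194 were identical (89.0%). Capitals mark the 3 identical runs of at least 12 bases, the longest of 48.
Ms4a6b: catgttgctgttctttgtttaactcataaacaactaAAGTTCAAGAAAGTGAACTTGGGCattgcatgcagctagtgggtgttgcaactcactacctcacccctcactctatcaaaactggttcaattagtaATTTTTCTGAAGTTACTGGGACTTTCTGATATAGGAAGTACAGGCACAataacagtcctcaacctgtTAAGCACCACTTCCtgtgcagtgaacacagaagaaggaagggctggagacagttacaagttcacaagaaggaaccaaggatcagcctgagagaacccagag
Ms4a6c: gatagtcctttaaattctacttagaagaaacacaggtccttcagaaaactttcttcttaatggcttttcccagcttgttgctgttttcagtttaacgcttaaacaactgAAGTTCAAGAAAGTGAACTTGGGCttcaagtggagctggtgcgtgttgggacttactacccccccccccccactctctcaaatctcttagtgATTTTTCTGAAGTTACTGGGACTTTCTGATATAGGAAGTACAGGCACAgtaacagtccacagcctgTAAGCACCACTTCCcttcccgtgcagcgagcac

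The window of Ms4a4a (chr19:11375238-11375537, plus strand) is shown as that of the gene chosen for its fall outside the Tmem176 pair. Capitals mark its match to an NF-kB pattern.
Ms4a4a: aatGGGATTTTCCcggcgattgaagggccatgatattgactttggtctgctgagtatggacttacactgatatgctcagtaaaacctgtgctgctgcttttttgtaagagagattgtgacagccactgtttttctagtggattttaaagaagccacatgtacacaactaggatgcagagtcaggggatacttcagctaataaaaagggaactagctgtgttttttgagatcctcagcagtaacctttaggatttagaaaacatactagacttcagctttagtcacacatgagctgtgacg
Binding patterns were searched on both strands of the 7 windows and of 27025 RefSeq promoters of the same length. The NF-kB pattern (GGG, any 2 bases, TTTCC) was in Ms4a4a, as GGGATTTTCC from position -247, and in Tmem176a, as GGGGTTTTCC on the minus strand at position -86, against 1.6% of all promoters. GAGGAA, the core bound by the myeloid factor PU.1, was in 3 of the 7 windows (Tmem176a, Ms4a4c and Ms4a7) and in 28.3% of all promoters. TTGCNNAA (C/EBP, 10.8% of promoters), the interferon response element (GAAA, any 2 bases, GAAA, 3.5%), TGANTCA (AP-1, 7.9%), CCAAT (NF-Y, 37.9%) and AGGTCA (ROR, 16%) were in none of the 7 windows. The matches in Tmem176a did not overlap each other, and a match describes letters only.

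The proteins differ widely. In alignments of the coding sequences translated from GENCODE M21, Tmem176a (244 residues) and Tmem176b (263 residues) were 31.9% identical, and either was 20.4% to 25.3% identical to an Ms4a member. Within the cluster, Ms4a6b and Ms4a6c shared 72.9% of residues, Ms4a6b and Ms4a6d 71.3%, and Ms4a6c and Ms4a6d 65.0%. Ms4a4a and Ms4a4c shared 47.7%, and Ms4a7 shared 27.3% to 34.7% with the others. Reads from near-identical stretches can be split between genes: of the stretches of 50 bases in the transcripts, 5.85% of those of Ms4a6c, 3.44% of Ms4a6b, 2.31% of Ms4a6d and 8.19% of Ms4a4c also occurred in another family gene. None did for Tmem176a, Tmem176b, Ms4a4a or Ms4a7.

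The libraries held 28581306 to 35929596 counts on genes and 17150 to 18680 detected genes. The WT replicate 3 library stood apart on the first principal component of log2 CPM (57.5, against -16.8 to 3.4 for the others), which carried 15.2% of the variance. On the second, WT replicate 2 (-45.4) and ApoE-deficient replicate 2 (38) lay outside the others. All 8 members were among the 13815 genes that passed the filter on low counts. The labelled cell type was checked on 8 macrophage markers, all detected, whose summed level was 20568 to 23686 CPM (counts scaled to library size) in every library.

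Per kilobase of exon, the members covered a wide range in the PBS group. The length used joins all annotated exons of a gene, from 836 bases (Ms4a4a) to 4485 bases (Ms4a6b). The order of genes, and the size of any ratio between genes, depends on that choice. Ms4a7, used as a macrophage marker, was the most abundant at 115 ± 1.73 CPM per kb (SD, n = 3). Ms4a6d followed at 43.7 ± 1.49 and Ms4a6c at 39.3 ± 2.25 CPM per kb, with ranges of 42.5 to 45.4 and 37 to 41.5 that did not overlap. Tmem176b stood at 25.3 ± 4.52 and Ms4a4a at 11.7 ± 1.48 CPM per kb. Ms4a6b at 5.87 ± 0.166 and Tmem176a at 5.44 ± 0.119 CPM per kb were close, with ranges of 5.71 to 6.04 and 5.3 to 5.51. Ms4a4c was nearly silent at 0.474 ± 0.241 CPM per kb. The order by group mean was the same in the WT and ApoE-deficient groups.

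**Figure D1:**
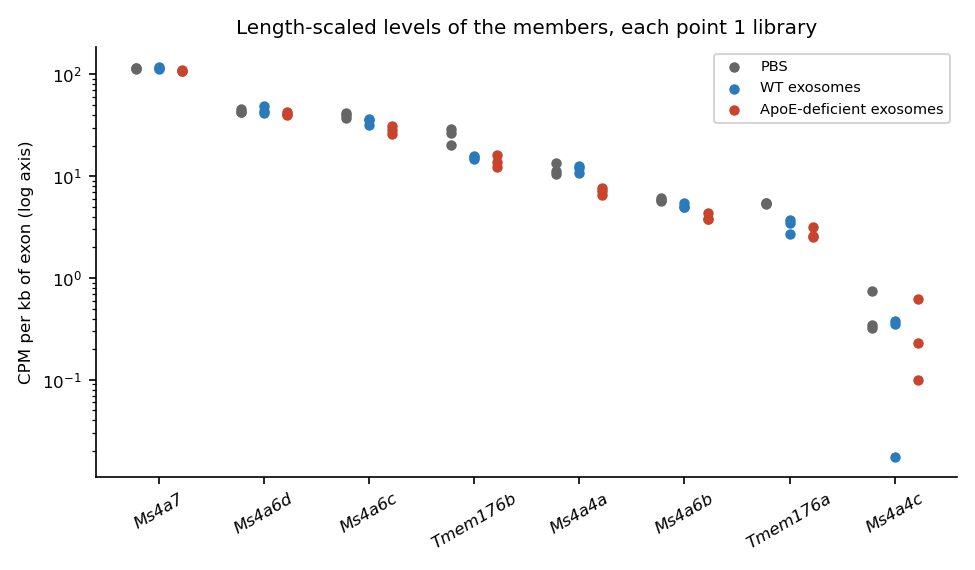
Level per kilobase of exon (CPM per kb, log axis) of the 8 members in the 9 libraries, by group. Ms4a7 lies above all others, near 115 CPM per kb with PBS, and Ms4a4c below all others.

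Both Tmem176 genes were lower after either kind of exosome. Tmem176a stood at 21, 21 and 20.2 CPM in the PBS libraries, at 14.2, 13.2 and 10.2 CPM with wild-type exosomes, and at 12.1, 9.78 and 9.73 CPM with ApoE-deficient exosomes. All libraries with exosomes lay below all PBS libraries. Against PBS the mean differed by -39.6% in the WT group (log2 difference -0.73 ± 0.14 SE, 95% interval -1.01 to -0.44) and by -49.1% in the ApoE-deficient group (-0.97 ± 0.14, -1.26 to -0.69). Without the WT replicate 3 library, which held the lowest value of its group, the WT difference was -0.59.

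Tmem176b, the partner gene, stood at 69, 48.1 and 62.7 CPM with PBS, 36.8, 35.2 and 37.2 CPM with wild-type exosomes, and 32.7, 38.2 and 29.1 CPM with ApoE-deficient exosomes. The PBS libraries spread the most, and again none overlapped with a library that received exosomes. The mean differed from PBS by -39.2% in the WT group (log2 difference -0.72 ± 0.10 SE, 95% interval -0.92 to -0.51, and -0.73 without WT replicate 3) and by -44.4% in the ApoE-deficient group (-0.85 ± 0.10, -1.05 to -0.64).

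Between the 2 kinds of exosomes the Tmem176 values overlapped. The log2 difference of the ApoE-deficient from the WT group was -0.25 ± 0.14 for Tmem176a (95% interval -0.54 to 0.04, edgeR adjusted p = 0.716) and -0.13 ± 0.10 for Tmem176b (-0.34 to 0.08, edgeR adjusted p = 0.826). Neither passed the test, and the intervals leave room for a lower level with ApoE-deficient exosomes. Single libraries moved both values: Tmem176a differed by -0.15 without WT replicate 1 and by -0.38 without WT replicate 3, and Tmem176b by -0.04 without ApoE-deficient replicate 3 and by -0.24 without ApoE-deficient replicate 2. The ratio of Tmem176b to Tmem176a per kb was 5.29, 3.68 and 4.99 in the PBS libraries, 4.18, 4.28 and 5.89 in the WT libraries and 4.34, 6.27 and 4.81 in the ApoE-deficient libraries. The ratios of all 3 groups overlapped, and no test was made of them.

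**Figure D2:**
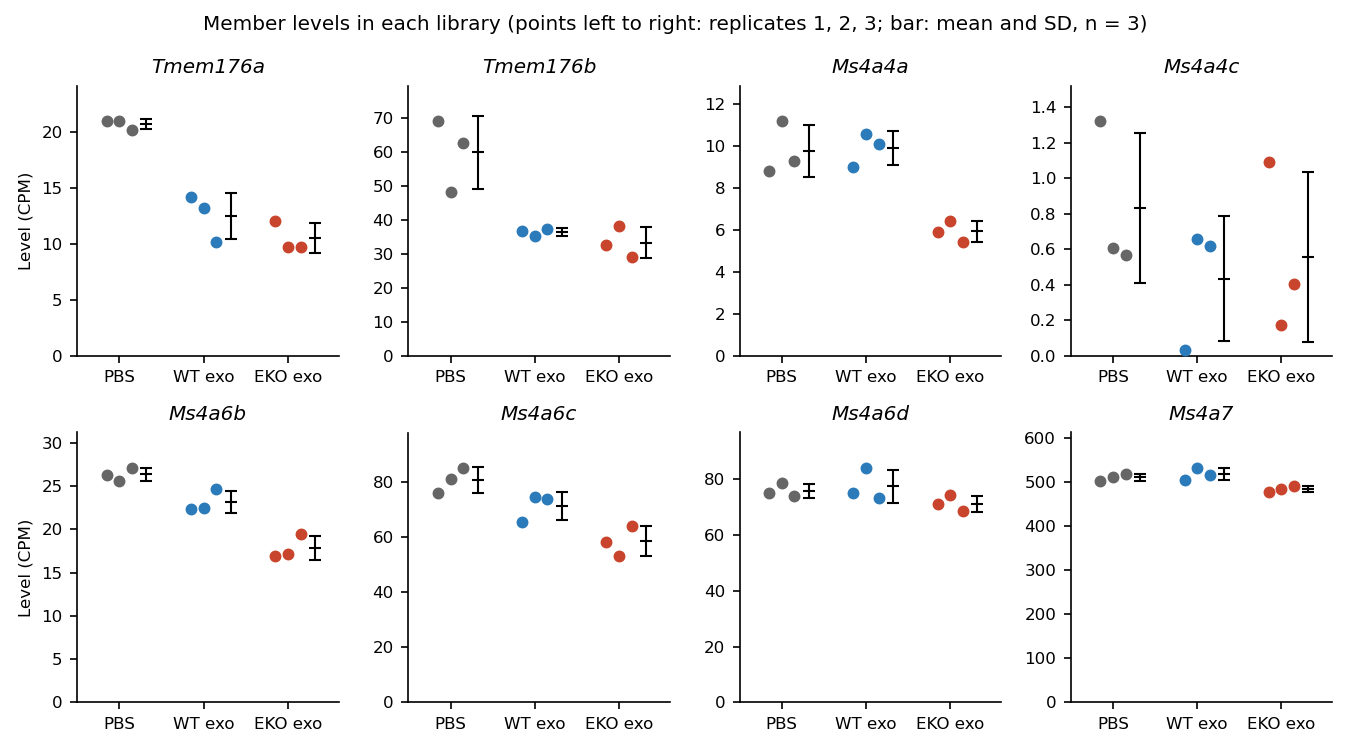
Level (TMM-scaled CPM, each axis starting at 0) of each member in the 3 PBS, 3 WT exosome and 3 EKO (ApoE-deficient) exosome libraries; points are libraries and bars the group mean with its SD. Tmem176a and Tmem176b are lower in both exosome groups and Ms4a4a in the EKO group alone. For Ms4a6b and Ms4a6c the WT libraries lie between the others, and their difference from PBS did not pass the test.

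Ms4a4a, the partner of Dectin-1, had another pattern: lower with ApoE-deficient exosomes and at the PBS level with wild-type exosomes. Its values were 8.84, 11.2 and 9.32 CPM with PBS, 9.02, 10.6 and 10.1 CPM with wild-type exosomes, and 5.93, 6.46 and 5.44 CPM with ApoE-deficient exosomes. Every ApoE-deficient library lay below every other library, while the PBS and WT libraries overlapped. The mean differed from PBS by -39.2% in the ApoE-deficient group (log2 difference -0.72 ± 0.17 SE, 95% interval -1.07 to -0.37) and by 1.4% in the WT group (0.02 ± 0.17, -0.33 to 0.36).

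Against the WT group, the mean of Ms4a4a differed by -40.0% with ApoE-deficient exosomes (log2 difference -0.74 ± 0.17, 95% interval -1.09 to -0.39, edgeR adjusted p = 0.0273). This comparison uses the same ApoE-deficient libraries in which the gene's low level led to its choice, so it is not independent of that choice. The call was lost when any ApoE-deficient library or WT replicate 2 or 3 was left out, with a difference between -0.80 and -0.68 there. Over all alternatives the adjusted p ran from 0.00317 to 0.164. The counts behind it were 185 to 212 in the ApoE-deficient and 296 to 324 in the WT libraries.

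Ms4a4c, the nearest relative of Ms4a4a among the members, was close to the limit of detection, with 1 to 39 counts per library. Its values were 1.32, 0.608 and 0.567 CPM with PBS, 0.0305, 0.655 and 0.62 CPM with wild-type exosomes, and 1.09, 0.175 and 0.405 CPM with ApoE-deficient exosomes. The groups overlapped, and no difference was detectable at this depth: the 95% intervals of the log2 difference ran from -2.36 to 1.25 for the ApoE-deficient group against PBS (edgeR adjusted p = 0.899) and from -2.76 to 0.91 for the WT group against PBS (0.757).

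Ms4a6b and Ms4a6c, the closest relatives among the members, fell with ApoE-deficient exosomes. Ms4a6b stood at 26.3, 25.6 and 27.1 CPM with PBS, 22.3, 22.5 and 24.6 CPM with wild-type exosomes, and 16.9, 17.1 and 19.4 CPM with ApoE-deficient exosomes. The 3 groups did not overlap, with the WT libraries between the others. Against PBS, Ms4a6b fell by 32.4% in the ApoE-deficient group (log2 difference -0.57 ± 0.11 SE, 95% interval -0.78 to -0.35, edgeR adjusted p = 0.000523). In the WT group the difference was -12.0%, which did not pass the test (log2 -0.19 ± 0.11, -0.40 to 0.03; -0.23 without WT replicate 3; edgeR adjusted p = 0.475).

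Ms4a6c stood at 75.8, 81 and 85 CPM with PBS, 65.5, 74.5 and 73.5 CPM with wild-type exosomes, and 58.2, 53 and 64 CPM with ApoE-deficient exosomes. Here too the groups did not overlap and the WT libraries lay between. Against PBS it fell by 27.5% in the ApoE-deficient group (log2 difference -0.46 ± 0.071, 95% interval -0.61 to -0.32, edgeR adjusted p = 1.89e-05). The WT group differed by -11.7% (log2 -0.18 ± 0.071, -0.32 to -0.04; -0.20 without WT replicate 3), which did not pass the test across all genes (edgeR adjusted p = 0.179). Of the exon length of Ms4a6c, 53.1% is overlapped by BE692007 on the other strand, and no source says if the counting used strand. BE692007 itself was listed at 0.245 to 1.51 CPM, and reads of the shared part cannot be assigned to one of them.

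Between the 2 kinds of exosomes, Ms4a6c differed by -17.9% in the ApoE-deficient group (log2 difference -0.28 ± 0.071, 95% interval -0.43 to -0.14, edgeR adjusted p = 0.0478), just past the threshold. It missed the threshold with limma-voom (adjusted p = 0.0656) and without ApoE-deficient replicate 1 or 2, PBS replicate 2, or WT replicate 2 or 3 (adjusted p from 0.00612 to 0.415 over all alternatives). Ms4a6b differed by -23.2% in the same comparison (log2 -0.38 ± 0.11, -0.60 to -0.16), which missed the threshold in edgeR (adjusted p = 0.108) and passed it in DESeq2 (adjusted p = 0.0254).

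Ms4a6d, the third gene of the Ms4a6 subgroup, showed no difference past the test. Its values were 74.9, 78.7 and 73.8 CPM with PBS, 75, 84.1 and 73.1 CPM with wild-type exosomes, and 71, 74.2 and 68.5 CPM with ApoE-deficient exosomes, and all groups overlapped. The log2 difference of the ApoE-deficient group from PBS was -0.09 ± 0.064 (95% interval -0.22 to 0.04, edgeR adjusted p = 0.644), that of the WT group 0.03 ± 0.064 (-0.10 to 0.16, 0.917). Set against Ms4a6d in the same library, the level of Ms4a6c per kb was 0.857, 0.871 and 0.975 with PBS, 0.739, 0.75 and 0.851 with wild-type exosomes, and 0.694, 0.605 and 0.791 with ApoE-deficient exosomes. All libraries with exosomes lay below all PBS libraries in this ratio, but narrowly: 0.851 in WT replicate 3 against 0.857 in PBS replicate 1. No test was made of this ratio or the next. The ratio of Ms4a6b to Ms4a6d was 0.136, 0.126 and 0.142 with PBS, 0.115, 0.104 and 0.13 with wild-type exosomes, and 0.0919, 0.0891 and 0.109 with ApoE-deficient exosomes. In this ratio the ApoE-deficient libraries lay below the PBS libraries, while the WT libraries overlapped with both.

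Ms4a7, the most abundant member, differed little. It stood at 501, 512 and 517 CPM with PBS, 504, 532 and 516 CPM with wild-type exosomes, and 478, 484 and 490 CPM with ApoE-deficient exosomes. The ApoE-deficient libraries lay below all others, with a mean -5.1% from that of PBS (log2 difference -0.08 ± 0.032, 95% interval -0.14 to -0.01, edgeR adjusted p = 0.264) and -6.4% from that of the WT group (-0.10 ± 0.032, -0.16 to -0.03, 0.252). Neither passed the test across all genes. The WT group differed from PBS by 0.02 ± 0.032 (-0.04 to 0.09, edgeR adjusted p = 0.877).

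**Figure D3:**
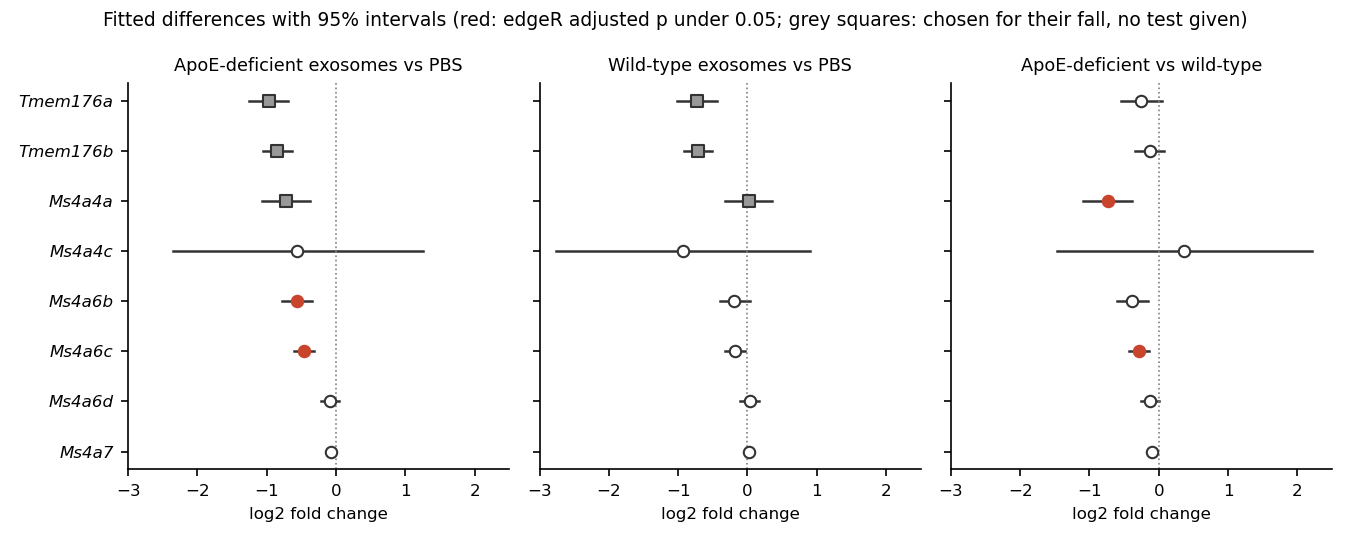
Fitted log2 fold change of each member with its 95% interval in the 3 comparisons; red points have an edgeR adjusted p under 0.05, and grey squares are the genes chosen for their fall, shown with no test. Ms4a6b and Ms4a6c lie below 0 against PBS with ApoE-deficient exosomes, Ms4a6d and Ms4a7 lie near 0, and the interval of Ms4a4c is the widest.

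Across the set, 5 of the 8 members were lower past an adjusted p of 0.05 in the ApoE-deficient group against PBS, where 2.41% of the 13815 genes tested were lower and 4.23% differed in either direction. Of these 5, 3 were the genes chosen for their fall. Against PBS the WT group had 2 members past the threshold, beside 2.18% of genes lower (4.11% in either direction), and both were Tmem176 genes chosen for their fall. Nothing is read from either count. Between the exosome groups 2 members passed, the chosen Ms4a4a and the unchosen Ms4a6c, beside 0.413% of genes lower (0.695% in either direction). Among the 5 members not chosen for their fall, edgeR called 2 lower in the ApoE-deficient group against PBS (Ms4a6b and Ms4a6c), 0 in the WT group against PBS and 1 between the exosome groups (Ms4a6c). For these 5, DESeq2 called 2, 0 and 2 and limma-voom 2, 0 and 0, and 3, 1 and 3 had an unadjusted edgeR p under 0.05. Of all 13815 genes, DESeq2 called 394, 380 and 97 lower and limma-voom 353, 303 and 69. For the unadjusted p no share of all genes was taken, so nothing is read from its counts, here or for the lists below. The median log2 difference of these 5 members was -0.46, -0.18 and -0.12 in the 3 comparisons, and that of all genes -0.001, -0.003 and 0.000. None of these 5 members was called higher by edgeR (1.82%, 1.93% and 0.282% of genes were), DESeq2 or limma-voom. Their 3, 1 and 3 values with an unadjusted edgeR p under 0.05 were all lower. For the 3 chosen genes the direction was set by the choice, and nothing is read from it. Of the 5 unchosen members, Ms4a6b, Ms4a6c and Ms4a7 lay below every PBS library in the ApoE-deficient group (9.24% of genes did), Ms4a6b and Ms4a6c did so in the WT group (8.87%), and Ms4a6b, Ms4a6c and Ms4a7 lay below every WT library in the ApoE-deficient group (7.01%).

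Of the 13 other Ms4a symbols in the annotation, 8 had a count in some library and 1, Ms4a14, passed the filter. Ms4a14, next to Ms4a7 on the chromosome, stood at 118, 117 and 103 CPM with PBS, 100, 102 and 105 CPM with wild-type exosomes, and 84.9, 94.9 and 95.4 CPM with ApoE-deficient exosomes. It fell by 18.6% in the ApoE-deficient group against PBS (log2 difference -0.30 ± 0.059, edgeR adjusted p = 0.000942). The WT group overlapped with PBS (-8.9%, log2 -0.13 ± 0.059, edgeR adjusted p = 0.269), and the 2 exosome groups differed by -0.16 ± 0.059 (edgeR adjusted p = 0.323). Ms4a1, which encodes CD20, was at 0 to 0.203 CPM. Ms4a2 had no count in any library, which allows up to 3 counts, or 0.0835 to 0.105 CPM by library (counting error only).

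Around the members, Ms4a14 was the 1 tested gene called lower against PBS, in the ApoE-deficient group. Within 500 kb of the Tmem176 genes, 29 protein-coding genes are annotated and 11 were tested. Of all genes tested, edgeR called 4.23% in the ApoE-deficient and 4.11% in the WT group against PBS. In either comparison with PBS edgeR called 1 of the 11, as did DESeq2 and limma-voom, while 2 (ApoE-deficient) and 4 (WT) had an unadjusted edgeR p under 0.05. The gene called by edgeR was Gpnmb, a membrane protein of lysosomes, which rose from 12458 ± 302 CPM with PBS to 14716 ± 215 CPM with ApoE-deficient exosomes (log2 difference 0.24 ± 0.024, edgeR adjusted p = 7.06e-09) and 14559 ± 522 CPM with wild-type exosomes (0.22 ± 0.024, 6.78e-08). Around the Ms4a members, 41 genes are annotated and 11 were tested, Ms4a14 included. Apart from Ms4a14, 1 was called against PBS in the ApoE-deficient group: Stx3, a syntaxin of vesicle fusion, which rose by 16.6% (log2 difference 0.22 ± 0.065, edgeR adjusted p = 0.0404). Slc15a3, a lysosomal peptide and histidine transporter named after its values were seen, rose by 12.8% in the WT group (0.17 ± 0.036, edgeR adjusted p = 0.00164), and differed by -12.5% in the ApoE-deficient from the WT group (log2 -0.19 ± 0.036, 0.00202).

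**Figure D4:**
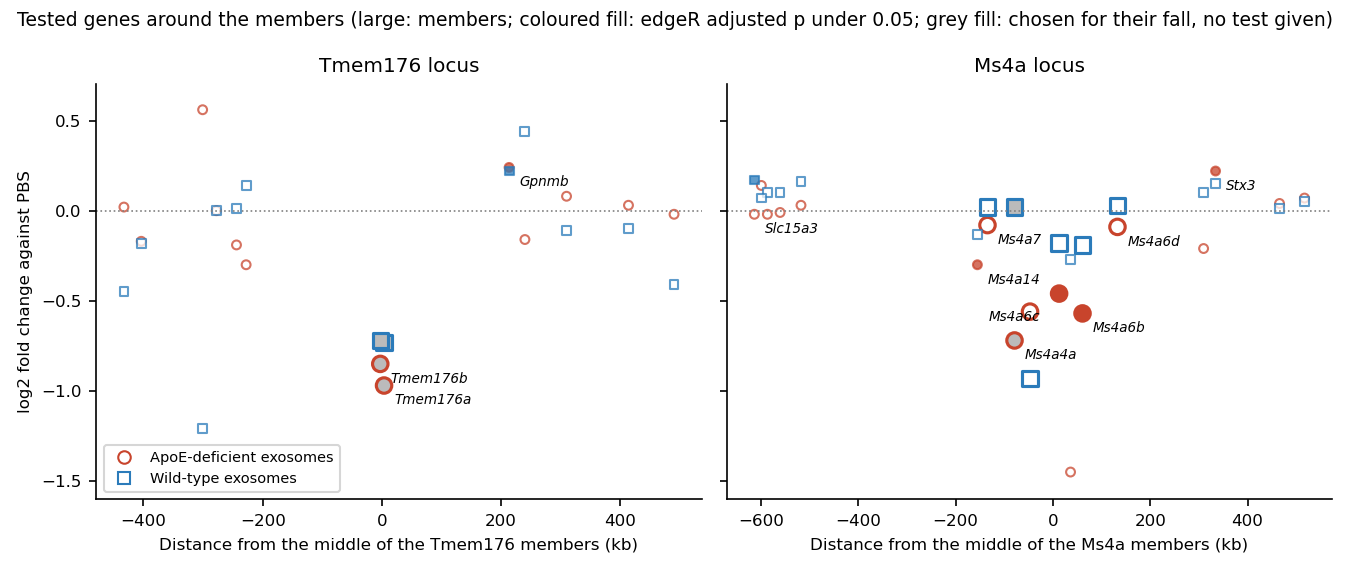
Log2 fold change against PBS of tested genes around the Tmem176 members (left) and Ms4a members (right), by distance in kb from the middle of the members; circles are ApoE-deficient and squares wild-type exosomes. Large symbols are members, coloured fill marks an edgeR adjusted p under 0.05, and grey fill marks genes chosen for their fall; Gpnmb and Stx3 lie above 0.

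The tetraspanins are an unrelated family of similar membrane topology and include common exosome proteins. Of 19 listed, 17 were tested. Cd9 rose from 499 ± 13.9 CPM with PBS to 562 ± 12.3 CPM with ApoE-deficient exosomes (log2 difference 0.17 ± 0.037, edgeR adjusted p = 0.00219), and Cd63, of late endosomes, by 0.16 ± 0.041 (0.0112). Cd53 and Cd37 differed by 0.09 ± 0.036 and -0.08 ± 0.040, without passing the test (edgeR adjusted p = 0.217 and 0.417). In the WT group 1 of the 17 rose, Cd63 (0.19 ± 0.041, edgeR adjusted p = 0.00274). Between the exosome groups 1 was higher with ApoE-deficient exosomes, Cd9 (0.15 ± 0.037, edgeR adjusted p = 0.0345). Of all genes tested, 1.82% (ApoE-deficient) and 1.93% (WT) rose against PBS and 0.282% were higher between the exosome groups.

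Receptors and adaptors linked to Ms4a proteins in macrophages were a list of 10, all tested. In the ApoE-deficient group 1 fell against PBS: Fcgr1, the high-affinity IgG receptor, from 138 ± 6.63 to 92.4 ± 3.25 CPM (log2 difference -0.58 ± 0.052, edgeR adjusted p = 6.61e-10). Clec7a, which encodes Dectin-1, differed by -9.5% (log2 -0.14 ± 0.046, edgeR adjusted p = 0.0785). In the WT group both passed the test: Clec7a fell by 11.1% (-0.17 ± 0.047, edgeR adjusted p = 0.0253) and Fcgr1 fell by 12.0% (-0.18 ± 0.051, 0.0289). Fcgr1 was also lower in the ApoE-deficient than in the WT group (-0.39 ± 0.052, edgeR adjusted p = 9.58e-06), in the direction of Ms4a4a, Ms4a6b and Ms4a6c. Trem2, the lipid receptor, stood at 1068 ± 42.5 CPM with PBS and 1103 ± 14.5 CPM with ApoE-deficient exosomes (edgeR adjusted p = 0.583). With wild-type exosomes Trem2 stood at 1141 ± 14.7 CPM, all libraries above those with PBS, which missed the threshold (log2 difference 0.09 ± 0.030, edgeR adjusted p = 0.0664). Of the 10 genes, DESeq2 called 2 in the ApoE-deficient and 4 in the WT group against PBS, and limma-voom 1 and 3. Of all 13815 genes, DESeq2 called 711 and 761 there and limma-voom 623 and 575. The edgeR share of all genes was 4.23% (ApoE-deficient) and 4.11% (WT) against PBS and 0.695% between the exosome groups.

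The compartment of MHC class II loading, where Tmem176 proteins have been placed in dendritic cells, was a list of 11 genes, all tested. In the ApoE-deficient group 4 fell and 1 rose against PBS, where 2.41% of all genes tested fell and 1.82% rose (2.18% and 1.93% in the WT group). Cd74, the invariant chain, fell from 68.3 ± 3.83 to 41.7 ± 1.49 CPM (log2 difference -0.71 ± 0.083, edgeR adjusted p = 1.52e-07). The class II chains H2-Aa (-0.83 ± 0.15, edgeR adjusted p = 0.00038), H2-Ab1 (-0.61 ± 0.14, 0.00556) and H2-Eb1 (-0.71 ± 0.17, 0.00602, named after its values were seen) fell too, and the lysosomal protein gene Lamp1 rose (0.11 ± 0.025, 0.00449). The median log2 difference was -0.39. In the WT group Cd74 fell (-0.45 ± 0.082, edgeR adjusted p = 0.000384), Lamp1 rose and the median was -0.19. None of the 11 was called between the exosome groups by edgeR, DESeq2 or limma-voom, where 3 had an unadjusted edgeR p under 0.05.

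Markers of alternatively activated macrophages, among which Ms4a4a and Ms4a7 are often counted, were a list of 14 with 9 tested. None was called in any of the 3 comparisons by edgeR, DESeq2 or limma-voom. Of all genes tested, edgeR called 4.23% (ApoE-deficient) and 4.11% (WT) against PBS and 0.695% between the exosome groups. With such shares, none of 9 says little about the list. Some of the 9, Chil3 among them, had low group means, from 0.198 to 3.51 CPM. The number with an unadjusted edgeR p under 0.05 was 2 (ApoE-deficient) and 3 (WT) against PBS, and 2 between the exosome groups. Mrc1, the mannose receptor, stood at 100 ± 5.61 CPM with PBS and 89.7 ± 2.25 CPM with ApoE-deficient exosomes (log2 difference -0.16 ± 0.060, edgeR adjusted p = 0.163).

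Across the 9 libraries, the genes most like the mean of the Tmem176 genes were ranked by Pearson's r of log2 CPM over 9261 genes, as a description. Csf1r, the M-CSF receptor, came first (r = 0.986), with 4051 ± 137 CPM with PBS, 3471 ± 63.4 CPM with wild-type and 3327 ± 97.6 CPM with ApoE-deficient exosomes. Nfam1 (0.971), Vasp (0.970), Fancd2 (0.970) and C3 (0.968) followed. Among the other members, Ms4a6b had r = 0.762 (rank 351), Ms4a6c 0.719 (rank 496) and Ms4a4a 0.556 (rank 1093). Lower still were Ms4a7 (0.363), Ms4a4c (0.328) and Ms4a6d (0.317). The genes most like Ms4a7 were Tubb6 (0.953), Slc9a9 (0.946), Pltp (0.941), Nckap1l (0.933) and Tbc1d2b (0.933), and Ms4a4a ranked 29 for this profile (0.881). The 9 points share their 3 groups, and no p is given for these values.

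Markers of cell types moved beside the members, and their part in the results was not tested. In bulk RNA, fewer cells of a type and less RNA per cell cannot be told apart. Of the 8 macrophage markers, 6 fell in the ApoE-deficient group against PBS (among them Fcgr1, Csf1r, Cd14 and Adgre1). Of all genes tested, 2.41% fell there and 2.18% in the WT group. The summed level of the 8 markers was 22435 to 23686 CPM with PBS, 20783 to 21445 CPM with wild-type and 20568 to 21550 CPM with ApoE-deficient exosomes. In the WT group 6 fell and 1, Cd68, named after its values were seen, rose (log2 difference 0.09 ± 0.028, edgeR adjusted p = 0.049). The 10 markers of granulocyte progenitors and neutrophils summed to 20.8 to 30 CPM with PBS, 10.3 to 30.7 CPM with wild-type and 3.78 to 18 CPM with ApoE-deficient exosomes, with Prtn3 at 0 in all libraries. Of these markers 5 were tested, with a median log2 difference from PBS of -1.17 in the ApoE-deficient and -0.44 in the WT group. In the ApoE-deficient group edgeR and DESeq2 called 0 of the 5 against PBS and limma-voom 2. Dendritic cell markers, 7 genes, summed to 0.622 to 2.04 CPM over all libraries, B cell markers to 0.244 to 2.16 CPM with Cd79a at 0, and mast cell markers to 1.08 to 3.49 CPM with Ms4a2, Mcpt4 and Prss34 at 0. T and NK cell markers summed to 2.8 to 6.54 CPM with Cd8a and Nkg7 at 0, and fibroblast markers to 5.85 to 63.8 CPM.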

How the data were processed

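Per the labels' protocols, column-purified RNA went into mRNA libraries. The deposited values are raw counts per Ensembl gene. The submitters' processing notes list STAR 2.7.5c and GRCm38. No annotation release, strand setting or trimming is given in the sources used here. All 55536 gene IDs matched a symbol in GENCODE M21.

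Counts of all 9 libraries were fitted with edgeR 4.0.16 (R 4.3.3; filterByExpr with a minimum count of 10, TMM scaling, robust quasi-likelihood test, group as the only term), with Benjamini-Hochberg adjustment over 13815 genes and a threshold of 0.05. The steps were tested on simulated counts. CPM are TMM-scaled. Standard errors come from the F statistic. Alternatives were DESeq2 1.42.0, limma-voom (limma 3.58.1), other scaling, filters and sample sets, and leaving out each library. Proteins were aligned with Biopython 1.88.

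The members, lists and tests were chosen with earlier results of these data known. Named genes are all members, up to 4 genes of each list with the lowest p in ApoE-deficient exosomes against PBS, and the 5 genes most like each of 2 profiles, among genes with a mean of at least 5 CPM; exceptions are named where they occur. With 3 libraries a group, an exact permutation test of one gene could not go below 0.1.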

Additional observations from a re-analysis of the deposited data

How the results depend on the processing

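Over 16 alternatives, 4 to 5 members were called in the ApoE-deficient group against PBS and 2 in each for the WT group against PBS. These calls hold Tmem176a, Tmem176b and, with ApoE-deficient exosomes, Ms4a4a, which were chosen for their fall. Nothing is read from how often those genes were called against PBS, here or in the counts that follow. The other members called against PBS were Ms4a6b and Ms4a6c, in the ApoE-deficient group. Between the exosome groups the count of 2 became 1 with limma-voom (Ms4a4a), 3 with DESeq2, and 0 to 2 when a library was left out. It was 0 without ApoE-deficient replicate 1 or 2 or WT replicate 2 or 3, and 1 without ApoE-deficient replicate 3 or PBS replicate 2. Leaving out a library removes samples from the fit. Against PBS, Ms4a4a in the ApoE-deficient group missed the threshold without ApoE-deficient replicate 3 (-0.66) or PBS replicate 2 (-0.61). Of 429 single-gene values, 409 kept direction and side of the threshold and 6 changed sign, none of them called: Ms4a4a in WT against PBS without PBS replicate 1 (-0.047), PBS replicate 3 (-0.017) or WT replicate 2 (-0.030; leave-one-out range -0.047 to 0.128), Ms4a6d there without WT replicate 2 (-0.031; range -0.031 to 0.073), and Ms4a4c between the exosome groups without ApoE-deficient replicate 1 (-0.567) or WT replicate 1 (-0.185; range -0.567 to 0.787). For these sign changes the cause was not tested. Ms4a6b and Ms4a6c kept their fall against PBS with ApoE-deficient exosomes throughout (adjusted p up to 0.00757 and 0.00129). Ms4a4c had no value at a minimum count of 50.

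Same-numbered libraries did not deviate together (r from -0.035 to 0.04 over 9 pairs). With the replicate number as a block, 5, 2 and 2 members were called in the 3 comparisons, as without it, the genes chosen for their fall included.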
